A study of Mus musculus with 6 samples.

Results

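The SLAM family receptors were examined in sorted haematopoietic stem cells (HSC) that carry or lack the chemokine receptor CCR2. The 9 genes were taken by symbol (Slamf1, Cd48, Cd244a, Slamf6, Slamf7, Slamf8, Slamf9, Ly9 and Cd84), and all 9 of 22180 named genes on the arrays were measured. The arrays held 3 pools of CCR2-positive HSC and 3 pools of CCR2-negative HSC, all from C57BL/6J mice, with the marrow of 20 mice in each pool. No genetic change or treatment is named for either group. The age and sex of the mice, the rest of the sorting gate and any sharing of mice between pools are not stated in the labels used here. The labels call the pools biological replicates. From each pool 5 ng of total RNA was amplified and hybridised to 1 array, and values are log2 signals after RMA, a background, between-array and probe-set summary made by the authors.

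SLAM receptors are immunoglobulin-like surface proteins of blood cells that mostly bind to a copy of themselves on a neighbouring cell. CD48 is the exception that binds CD244 and, more weakly, CD2. The tails of most members carry tyrosine motifs that recruit the small adaptor SAP, which brings in the kinase Fyn, or else inhibitory phosphatases. In mouse marrow the family is best known as a sorting code: long-term HSC display CD150 (Slamf1) and lack CD48 and CD244 (Cd244a), progenitors gain CD48, and CD229 (Ly9) divides HSC and multipotent progenitors further.

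All 9 genes lie on mouse chromosome 1 (assembly GRCm38.p6, from the RefSeq table). Of these, 7 form a run in the order Cd244a, Ly9, Slamf7, Cd48, Slamf1, Cd84 and Slamf6, which spans 390.2 kb from 171558718 to 171948958. Slamf9 and Slamf8 form a second run of 132.3 kb, from 172458569 to 172590873. The RefSeq promoter table held 8 of the 9 genes, all but Ly9. The first 250 bases of the table's promoter window are shown for Cd84, the member with the largest difference, and for Slamf1 and Cd48, the pair that defines the sorting code. Those of Cd84 end just before the annotated start of the gene at 171839697, and those of Slamf1 end on its annotated first base, 171767131. Those of Cd48 lie inside the annotated gene, which starts at 171681245, and the transcript start that the table used is not given. Each is on the plus strand and is read 5′ to 3′. Capitals mark matches on either strand to GATAA (GATA factors), AGGAAG (ETS factors) or TGTGGT (RUNX factors), motifs of the transcription factor families active in blood stem cells.
Cd84, chr1:171839447-171839696: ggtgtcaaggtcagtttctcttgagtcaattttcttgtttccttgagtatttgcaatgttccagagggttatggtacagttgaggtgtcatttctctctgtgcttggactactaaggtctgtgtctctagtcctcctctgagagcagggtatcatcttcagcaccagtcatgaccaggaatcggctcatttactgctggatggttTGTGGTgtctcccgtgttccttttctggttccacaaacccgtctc
Slamf1, chr1:171766882-171767131: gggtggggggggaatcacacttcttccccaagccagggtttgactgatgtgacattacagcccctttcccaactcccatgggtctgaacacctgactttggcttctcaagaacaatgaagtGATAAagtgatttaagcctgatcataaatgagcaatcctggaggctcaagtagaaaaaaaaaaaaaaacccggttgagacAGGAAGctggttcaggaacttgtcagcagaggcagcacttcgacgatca
Cd48, chr1:171681742-171681991: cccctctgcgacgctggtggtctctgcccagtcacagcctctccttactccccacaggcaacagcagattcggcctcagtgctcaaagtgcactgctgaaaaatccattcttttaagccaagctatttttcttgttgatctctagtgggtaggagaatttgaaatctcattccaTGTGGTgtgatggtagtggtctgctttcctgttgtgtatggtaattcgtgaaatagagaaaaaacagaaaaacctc
GATAA was found in the Slamf1 window and in no other of the 8 SLAM windows, against 22.6% of all 32851 promoter windows of the same length. AGGAAG was found for Slamf1, Slamf7 and Slamf9, against 29.5% of all windows. TGTGGT was found for Cd84 and Cd48, against 14.05% of all windows. The motifs do not overlap in these 3 windows, and a match describes letters, not binding.

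Before the members, the sort was checked by Ccr2, and the level of Kit, 1 of the listed stem cell genes, was read. Ccr2 had log2 values of 6.81, 7.10 and 6.18 in the CCR2-positive pools and 5.64, 6.26 and 5.83 in the CCR2-negative pools, so CCR2-positive replicate 3 lay below CCR2-negative replicate 2. Kit, the receptor of stem cell factor, had 9.73 ± 0.07 and 10.05 ± 0.21 (SD, n = 3 each, CCR2-positive first). It was lower in CCR2-positive pools without overlap, by -0.32 ± 0.13 (limma standard error, adjusted p = 0.365). Every gene has a value on an array, so the level of Kit does not check cell identity. The array medians were 5.48 to 5.58, and signal over background is unknown for each gene, since no detection calls are used here.

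Cd84 was 1.48-fold and Ly9 1.22-fold lower in CCR2-positive than in CCR2-negative pools, with no overlap between the groups, while Slamf1 and Cd48 overlapped. Neither Cd84 nor Ly9 passed the test over all genes. Over all genes, limma gave an adjusted p under 0.05 to 0 of the 9 SLAM genes and to 0% of all genes. At an unadjusted p under 0.05 there were 2 members, Cd84 and Ly9, both lower in CCR2-positive pools. All genes gave 6.61% lower and 5.63% higher by the same rule, or 1467 and 1249 genes. This background depended on signal level. With genes under the median level left out, 1123 were lower and 401 higher. Cd84 and Ly9 were among the genes kept. Of the 9 differences, 5 were below 0 and 4 above, with a median of -0.13 and a range from -0.57 to 0.33, while over all genes 44.0% were below 0 and the median was 0.03. CCR2-positive and CCR2-negative pools were fully separated for 4 members, against 18.6% of all genes. They lay lower for Cd84 and Ly9 (7.88% of all genes) and higher for Slamf6 and Slamf9 (10.8% of all genes). With 3 pools against 3, an exact two-sided permutation test of a single gene cannot give a p below 0.1. Differences are given on the log2 scale as CCR2-positive minus CCR2-negative group mean ± the limma standard error, and p-values are from limma. In pools of cells, fewer cells of a type and less RNA per cell cannot be told apart.

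**Figure D1:**
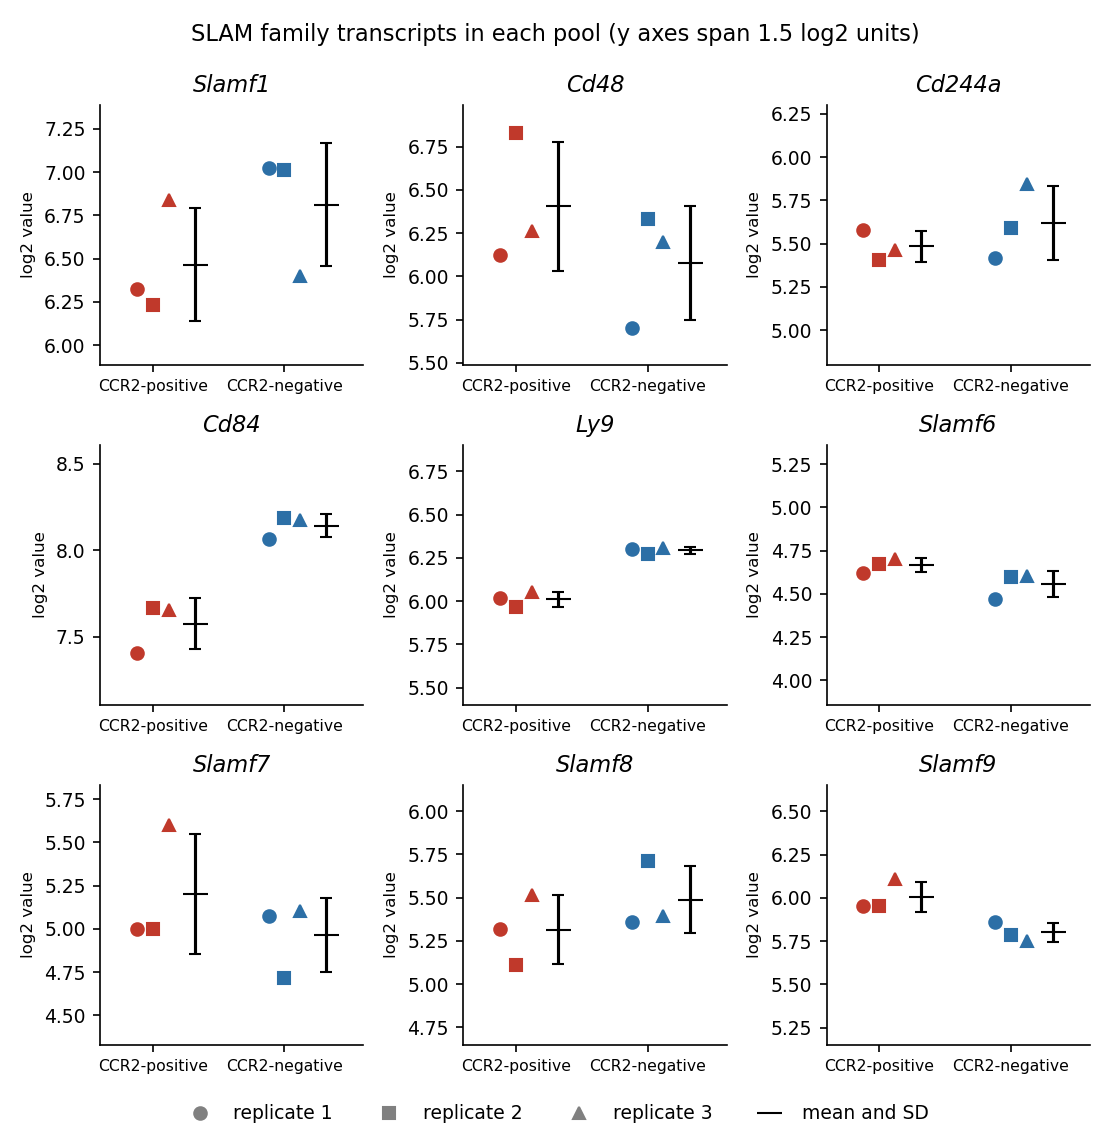
Log2 values of the 9 SLAM genes (y axes, each spanning 1.5 log2 units) in 3 CCR2-positive pools (red) and 3 CCR2-negative pools (blue). Symbols are replicates, and the black bar is the mean with SD. Cd84 sits between 7.41 and 7.67 in CCR2-positive pools and between 8.07 and 8.19 in CCR2-negative pools, while Slamf1, Cd48, Cd244a, Slamf7 and Slamf8 overlap.

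The receptors of the sorting code overlapped between the groups. Slamf1, which encodes CD150, had log2 values of 6.33, 6.23 and 6.84 in CCR2-positive pools and 7.03, 7.01 and 6.40 in CCR2-negative pools. In each group 2 pools sat close together and the third, replicate 3 in both, lay on the side of the other group, so that the groups overlapped. The difference was -0.35 ± 0.21, with a 95% interval from -0.83 to 0.14 (adjusted p = 0.540). It was -0.55 without CCR2-negative replicate 3, -0.53 without CCR2-positive replicate 3 and -0.23 without CCR2-positive replicate 2.

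Cd48, which encodes a GPI-anchored ligand that most progenitors carry, had log2 values of 6.12, 6.83 and 6.26 in CCR2-positive pools and 5.70, 6.33 and 6.20 in CCR2-negative pools. The highest and the lowest pool stood on their groups' own sides, and the other 4 lay together between 6.12 and 6.33. The difference was 0.33 ± 0.22, with a 95% interval from -0.17 to 0.82 (adjusted p = 0.576). It was 0.12 without CCR2-positive replicate 2 and 0.14 without CCR2-negative replicate 1, so its size rested largely on those 2 pools.

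Cd244a, which encodes the CD48 receptor 2B4, had log2 values of 5.58, 5.41 and 5.46 in CCR2-positive pools and 5.42, 5.59 and 5.85 in CCR2-negative pools. The groups overlapped, and CCR2-negative replicate 3 was the highest pool. The difference was -0.13 ± 0.13, with a 95% interval from -0.43 to 0.16 (adjusted p = 0.707), and it was -0.02 without CCR2-negative replicate 3 and -0.24 without CCR2-negative replicate 1.

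Cd84 encodes a receptor that binds itself and is known from platelets, mast cells, macrophages and lymphocytes. Its log2 values were 7.41, 7.67 and 7.65 in CCR2-positive pools and 8.07, 8.19 and 8.17 in CCR2-negative pools. Every CCR2-positive pool lay below every CCR2-negative pool, with a gap of 0.40 between the nearest pools, more than the SD within either group (0.15 and 0.07, CCR2-positive first). The difference was -0.57 ± 0.11, which is 1.48-fold lower, with a 95% interval from -0.82 to -0.31 (adjusted p = 0.177). By unadjusted p it ranked 90th of all genes. At an adjusted p under 0.2 it was the single SLAM member among 318 genes (1.43% of all), 244 of them lower (1.10%). Leaving out 1 pool at a time gave differences from -0.61 to -0.48.

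Ly9 encodes CD229, which also binds itself. Its log2 values were 6.02, 5.96 and 6.05 in CCR2-positive pools and 6.30, 6.27 and 6.31 in CCR2-negative pools. The pools of each group were close together and the groups stood 0.22 apart at their nearest. The difference of -0.28 ± 0.09, or 1.22-fold lower, had a 95% interval from -0.50 to -0.07 (adjusted p = 0.299). Limma's moderated standard error of 0.09 is wider than the SD between pools of 0.04 and 0.02 (CCR2-positive first), because it draws each gene's spread toward that of all genes. Leaving out 1 pool at a time gave differences from -0.30 to -0.26.

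The 4 remaining receptors are known from lymphoid and myeloid effector cells. Slamf6 (Ly108 of T, B and NK cells) had 4.62 to 4.70 in CCR2-positive pools and 4.47 to 4.60 in CCR2-negative pools. The gap between the groups was 0.02, and the difference was 0.11 ± 0.10 (adjusted p = 0.689). A second probe set of Slamf6 differed by -0.08 ± 0.14, so its probe sets disagreed in direction, and their mean differed by 0.01. The difference was 0.06 without CCR2-negative replicate 1 and 0.04 with cyclic loess.

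Slamf9, known from dendritic cells and macrophages, had 5.95, 5.96 and 6.11 in CCR2-positive pools and 5.86, 5.79 and 5.75 in CCR2-negative pools. The groups did not overlap, with a gap of 0.09. The difference was 0.20 ± 0.10, with a 95% interval from -0.03 to 0.43 (adjusted p = 0.451).

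Slamf7, a receptor of NK cells, plasma cells and macrophages, had 5.00, 5.00 and 5.60 in CCR2-positive pools and 5.07, 4.72 and 5.10 in CCR2-negative pools. Its difference of 0.23 ± 0.19 (adjusted p = 0.644) was 0.03 without CCR2-positive replicate 3, the single pool that stood above the rest, and 0.11 without CCR2-negative replicate 2. Slamf8, an inducible receptor of macrophages, had 5.11 to 5.51 in CCR2-positive pools and 5.36 to 5.71 in CCR2-negative pools. Its groups overlapped, with a difference of -0.17 ± 0.14 (adjusted p = 0.661) that was -0.06 without CCR2-negative replicate 2, -0.07 without CCR2-positive replicate 2 and -0.27 without CCR2-positive replicate 3.

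The intracellular partners of the receptors came from 5 lists with 26 symbols, of which 24 were measured, and Lck and Lyn were not analysed here. None passed over all genes. At an unadjusted p under 0.05, 5 were lower and 2 higher in CCR2-positive pools, against 6.61% and 5.63% of all genes. With genes under the median level left out, that background was 1123 genes lower and 401 higher. In all, 16 of the 24 differences were below 0, against 44.0% of all genes. Their median was -0.16, against 0.03 over all genes and -0.03 with genes under the median level left out. The pools did not overlap for 6 of the 24, all lower, where 7.88% of all genes were lower without overlap.

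Among ligand and adaptors, Cd2, the second ligand of CD48, differed by 0.30 ± 0.14 (adjusted p = 0.435). Sh2d1b1, which encodes the adaptor EAT-2, differed by 0.32 ± 0.18 (adjusted p = 0.500). That difference was 0.17 without CCR2-negative replicate 1, 0.19 without CCR2-positive replicate 2 and 0.20 with array weights. Sh2d1a, which encodes SAP, differed by 0.05 ± 0.11, and Sh2d1b2, which encodes the related adaptor ERT of mice, by 0.04 ± 0.18. The difference of Sh2d1a turned to -0.03 with cyclic loess, and that of Sh2d1b2 to -0.02 with it and to -0.15 with array weights. All 4 genes overlapped between the groups.

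Fyn is the Src family kinase that SAP brings to the receptors. Its log2 values were 6.21, 6.31 and 6.30 in CCR2-positive pools and 6.88, 6.81 and 6.73 in CCR2-negative pools, with no overlap. The difference was -0.53 ± 0.10, with a 95% interval from -0.76 to -0.31 (adjusted p = 0.177). Leaving out 1 pool at a time gave differences from -0.57 to -0.50. Csk, which restrains Src kinases, differed by 0.15 ± 0.14 (adjusted p = 0.709). Leaving out CCR2-positive replicate 2 gave 0.003, and leaving out replicate 3 gave 0.24 for the CCR2-positive and 0.09 for the CCR2-negative pool.

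Of the phosphatases that bind the receptors' tyrosine motifs, Ptpn6 (SHP-1) had 8.24, 8.27 and 8.24 in CCR2-positive pools and 8.59, 8.88 and 8.59 in CCR2-negative pools. Its pools did not overlap, and the difference was -0.44 ± 0.11 (adjusted p = 0.222). Inpp5d (SHIP1) differed by -0.22 ± 0.16 (adjusted p = 0.604). It was -0.11 without CCR2-positive replicate 1 and -0.12 without CCR2-negative replicate 1, but -0.33 without CCR2-positive replicate 2, -0.34 without CCR2-negative replicate 2 and -0.34 with array weights. Ptpn11 (SHP-2) differed by -0.04 ± 0.27, which turned to 0.01 with cyclic loess or a second quantile normalization and to 0.24 without CCR2-positive replicate 3, and which was -0.29 without CCR2-positive replicate 2 and -0.25 without CCR2-negative replicate 2.

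Of the 15 downstream genes, 12 were below 0, against 44.0% of all genes. That share covers genes of every signal level, and the all-gene median was -0.03 with genes under the median level left out. Plcg2, a phospholipase of receptor signalling, differed by -0.43 ± 0.13 (adjusted p = 0.276) and Prkcq, the protein kinase C that SAP and Fyn engage in T cells, by -0.36 ± 0.13 (adjusted p = 0.312). Neither gene overlapped between the groups. Bcl10 differed by -0.40 ± 0.17 (adjusted p = 0.383), and its groups overlapped. Itgam, the CD11b integrin chain, and Tyrobp, the adaptor DAP12, which act with SLAMF7 in mouse macrophages, differed by 0.47 ± 0.16 and 0.51 ± 0.21 (adjusted p = 0.319 and 0.387). Both are also genes of mature myeloid cells, and their groups overlapped.

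**Figure D2:**
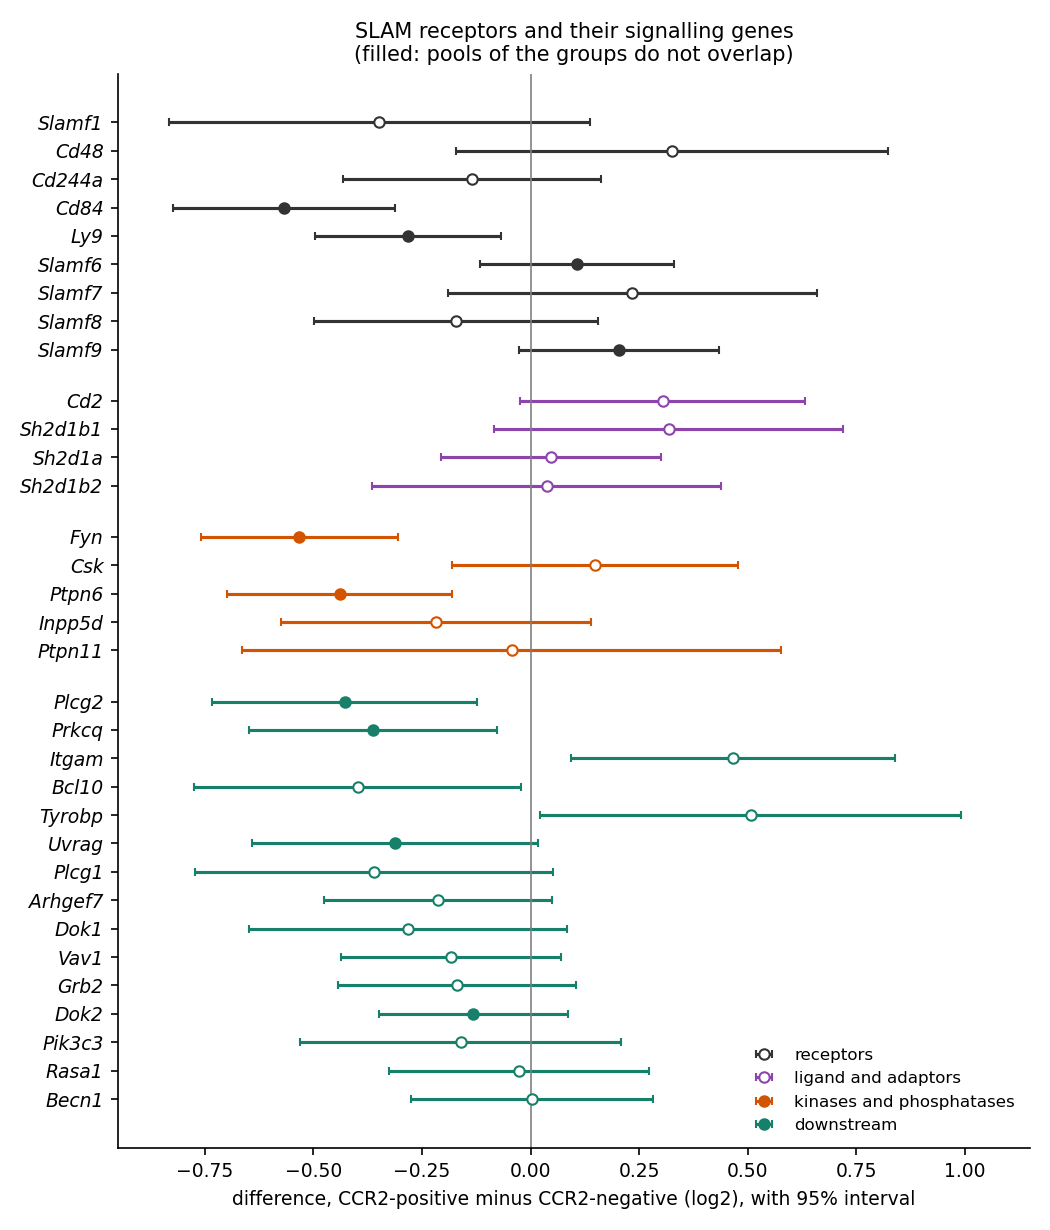
Differences in log2 value (x axis, CCR2-positive minus CCR2-negative, n = 3 pools each) with 95% limma intervals for the 9 receptors and 24 signalling genes (rows). Filled points have no overlap between the groups, and the intervals of Cd84, Ly9, Fyn, Ptpn6, Plcg2, Prkcq and Bcl10 lie wholly below 0, with those of Itgam and Tyrobp wholly above.

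Markers of stem cells and of other blood cells also differed between the pools, and their values are set beside the receptors. The mean log2 level of 14 stem cell genes was 7.05 to 7.41 in CCR2-positive pools and 7.57 to 7.93 in CCR2-negative pools. Of the 14 differences, 13 were below 0, against 44.0% over all genes. The all-gene median of 0.03 became -0.03 with genes under the median level left out. Tek, the angiopoietin receptor, differed by -0.82 ± 0.16 and Hoxb5, a gene of long-term HSC, by -0.47 ± 0.11 (adjusted p = 0.177 and 0.183). The mean of 7 erythroid markers was 9.49 to 10.03 in CCR2-positive pools and 8.79 to 9.30 in CCR2-negative pools. All 7 differences were above 0, where 12422 of all 22180 genes were above 0. Neither of these 2 means overlapped between the groups, as with Cd84 and Ly9. The part of a changed mix of cells in the receptor differences was not tested.

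Pool by pool, CCR2-negative replicate 1 had the highest stem cell mean (7.93), the lowest erythroid mean (8.79), the highest Slamf1 and the lowest Cd48. CCR2-positive replicate 2 had the lowest stem cell mean (7.05), the highest erythroid mean (10.03), the lowest Slamf1 and the highest Cd48. In 5 of the 6 pools Slamf1 followed the order of the stem cell mean. The exception, picked after the values were seen, was CCR2-negative replicate 3, with a stem cell mean of 7.58 and Slamf1 at 6.40. CCR2-negative replicate 2 had 7.57 and 7.01, and CCR2-positive replicate 3 had 7.41 and 6.84. How many of all genes follow the order as closely was not counted, so this is a description only. Cd84 did not take these pools as its extremes, since its lowest pool was CCR2-positive replicate 1 and its highest CCR2-negative replicate 2.

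The cells in which Cd84 and the effector receptors are best known have marker lists too. Their counts above 0 stand beside 12422 of 22180 over all genes. The all-gene median difference was 0.03, but -0.03 with genes under the median level left out. Megakaryocyte and platelet markers averaged 7.95 to 8.48 in CCR2-positive pools and 7.95 to 8.37 in CCR2-negative pools, with 3 of 5 below 0. The mast cell and basophil markers averaged 4.80 to 5.93 in CCR2-positive pools and 5.08 to 5.29 in CCR2-negative pools, with 5 of 6 above 0. Mcpt8, a basophil protease gene, had 5.96, 8.76 and 9.09 in CCR2-positive pools and 5.89, 6.41 and 6.36 in CCR2-negative pools. The groups overlapped, with a difference of 1.71 ± 0.70 (adjusted p = 0.375). Mcpt8 differed by 2.70 without CCR2-positive replicate 1, the pool that lay among the CCR2-negative pools (adjusted p = 0.0222). It differed by 1.14 without CCR2-positive replicate 3 (adjusted p = 0.582) and by 0.94 with array weights (adjusted p = 0.567). Monocyte and macrophage markers averaged 6.72 to 7.06 in CCR2-positive pools and 6.59 to 6.81 in CCR2-negative pools (9 of 11 above 0). B cell markers averaged 5.30 to 5.50 and 5.26 to 5.32 (5 of 6 above 0), T cell markers 5.31 to 5.48 and 5.39 to 5.43 (5 of 7 above 0), and NK cell markers 5.05 to 5.17 and 4.99 to 5.01 (5 of 6 above 0), with CCR2-positive first. Dendritic cell markers averaged 6.00 to 6.19 and 5.97 to 6.19 (3 of 5 above 0) and plasma cell markers 4.63 to 4.84 and 4.61 to 4.79 (3 of 4 above 0), with CCR2-positive first. Genes of multipotent and myeloid progenitors, which carry CD48 protein, averaged 6.72 to 7.30 in CCR2-positive pools and 6.71 to 7.27 in CCR2-negative pools (5 of 12 above 0). Among them Cd34, a sialomucin used to divide HSC from progenitors, differed by -0.83 ± 0.17 (adjusted p = 0.177) and Cd27 by -0.61 ± 0.15 (adjusted p = 0.201). Fcgr3, an Fc receptor gene of myeloid progenitors and myeloid cells, differed by 0.50 ± 0.13 (adjusted p = 0.213). None of the 3 overlapped between the groups.

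**Figure D3:**
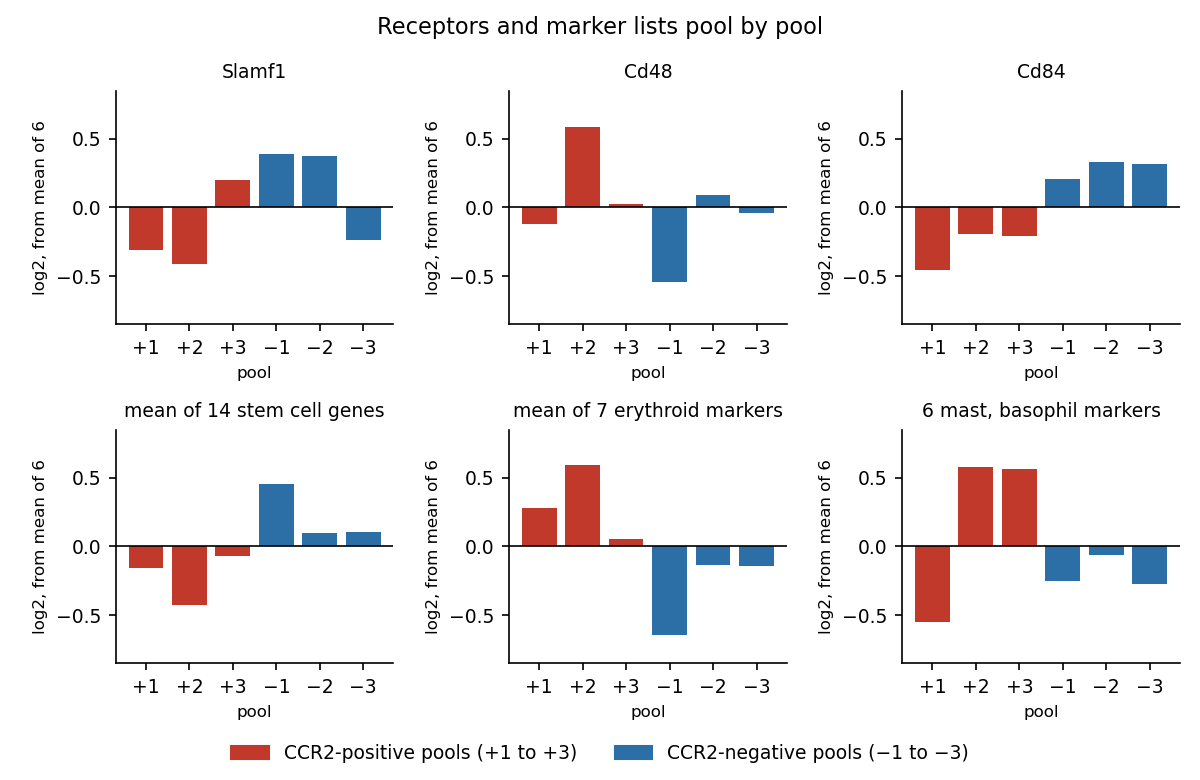
Deviation of each pool from the mean of all 6 (y axis, log2) for Slamf1, Cd48, Cd84 and the means of 14 stem cell genes, 7 erythroid markers and 6 mast cell and basophil markers. Bars are single pools, CCR2-positive in red and CCR2-negative in blue; Cd84 is below its mean in all 3 CCR2-positive pools, while Slamf1 and Cd48 each have pools on both sides within a group.

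The neighbourhood of the receptors on chromosome 1 was compared as well. Of 36 annotated genes between the members or up to 5 genes to either side of each run, 20 were measured. Of these, 10 were above 0 and 10 below, with a median of -0.003, against 44.0% of all genes below 0. At an unadjusted p under 0.05, 1 was lower and 2 were higher, against 6.61% and 5.63% of all genes, and none passed over all genes. Dusp23, a phosphatase gene near Slamf8, had 6.18, 6.51 and 6.38 in CCR2-positive pools and 6.82, 6.94 and 6.80 in CCR2-negative pools, without overlap. Its difference was -0.49 ± 0.12 (adjusted p = 0.190). Nhlh1, a neuronal transcription factor gene, and Kcnj9, a potassium channel gene, differed by 0.38 ± 0.11 and 0.35 ± 0.13 (adjusted p = 0.268 and 0.332). The difference of Kcnj9 was 0.23 without CCR2-positive replicate 3. Crp differed by 0.21 ± 0.14, Fcrl6 by 0.15 ± 0.12 and the pseudogene Gm2710 by 0.15 ± 0.10, all 3 with an adjusted p of 0.559 or more. Crp was 0.08 without CCR2-positive replicate 2. Without CCR2-negative replicate 1, Fcrl6 was 0.05 and Gm2710 was 0.09, and Fcrl6 was 0.09 without CCR2-positive replicate 3 and 0.07 with cyclic loess. The genes on either side of Cd84 had differences of -0.35 (Slamf1) and 0.11 (Slamf6), and whether neighbouring members differ from each other was not tested. An annotated long noncoding RNA, Gm51686, overlaps Cd84, and signal of the 2 genes could not be told apart without probe positions. The same limit holds for Cd244a, Slamf6, Slamf7 and Slamf9, each of which also overlaps an annotated gene.

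**Figure D4:**
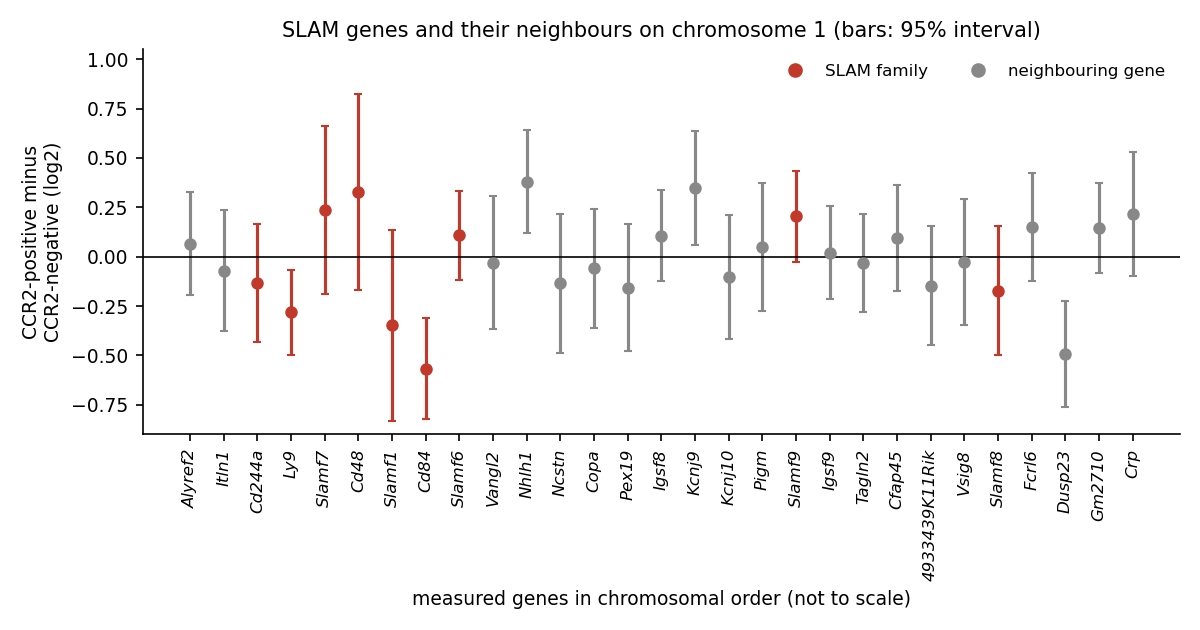
Differences in log2 value (y axis, CCR2-positive minus CCR2-negative, n = 3 pools each) with 95% limma intervals for the 9 SLAM genes (red) and 20 measured neighbours (grey), in chromosomal order along the x axis, not to scale. Ly9, Cd84 and Dusp23 have intervals wholly below 0, and Nhlh1 and Kcnj9 wholly above.

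Genes with the most similar pattern over the 6 pools were found by the root mean square distance between values centred on each gene. For Slamf1 the nearest were Hcst, which encodes the NK receptor adaptor DAP10 (distance 0.07 log2 units), Golga5, a Golgi protein gene (0.09), and Coro1b, a coronin gene (0.10). As with Slamf1, replicate 3 of each group lay on the other group's side for Hcst, with 7.80, 7.77 and 8.48 in CCR2-positive pools and 8.73, 8.56 and 7.95 in CCR2-negative pools. For Cd48 the nearest were Txnrd2, a mitochondrial thioredoxin reductase gene (0.06), Abcb4, a phospholipid transporter gene (0.08), and Fen1, a DNA replication nuclease gene (0.09). For Cd244a they were 6720483E21Rik (0.03), Ambra1, an autophagy gene (0.04), and Gm14743 (0.05). For Cd84, added after its values were seen, they were Ccdc125 (0.05), Ikzf2, which encodes the transcription factor Helios (0.06), and Fndc9 (0.06). Ikzf2 had 7.12, 7.49 and 7.45 in CCR2-positive pools and 7.96, 8.02 and 8.02 in CCR2-negative pools. Closeness over 6 pools among 22180 genes is a description only.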

How the data were processed

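The authors deposited 1 table of log2 values for 6 arrays, made with RMA per the submitters' processing notes. The version and settings of RMA are not stated in the labels. RMA makes the arrays' distributions alike, so differences are relative to other genes on an array. Of 41345 probe sets, 23521 had 1 gene in the platform annotation. The brightest per gene was kept, leaving 22180 genes. Groups were compared with limma 3.58.1 (R 4.3.3; lmFit, eBayes) without covariates, and p-values were adjusted by Benjamini-Hochberg over all genes at a threshold of 0.05. The fit was tested on simulated data with added differences larger than that of any SLAM gene, so it does not show power at their size. The number of arrays limits the precision. The members and lists were chosen with earlier results of these data known. Named genes are all members, Ccr2, the listed ligand, adaptors, kinases and phosphatases, at most 4 per other list and 6 neighbours by smallest p, and the 3 nearest patterns. Tyrobp, 5th by p among the downstream genes, was named as well. Kit, 8th by p among the stem cell genes, was chosen after its values were seen. Alternatives were filters on dim genes, 3 other normalizations, a replicate block, other variance settings, array weights, other probe-set choices, other thresholds and each pool left out.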

Additional observations from a re-analysis of the deposited data

How the results depend on the processing

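The 9 members kept their direction in 139 of 139 alternative fits and none passed the threshold in any. Part of this agreement was fixed by design. The filters, the replicate block, other variance settings and the fit over all probe sets return the same difference. So does the mean of probe sets for a member with a single probe set. Cd84 ranged from -0.63 to -0.48 (adjusted p from 0.0930 to 0.474) and Ly9 from -0.31 to -0.26 (adjusted p from 0.205 to 0.572). At an adjusted p under 0.2 there was 1 member among 318 genes, and at an unadjusted p under 0.05 there were 2 members among 2716 genes. No gene passed with all pools or in the other alternatives, except that leaving out 1 pool at a time gave 0 to 2 genes, the 2 without CCR2-positive replicate 1. Both groups number their replicates 1 to 3, but the labels state no pairing. Deviations of same-numbered pools correlated at 0.03 to 0.09 across genes, and not every pool correlated best with its own number. Such weak correlations cannot settle whether pools were paired, and the main fit took no pairs. With the replicate number as a block, 0 members and 0 genes passed (2935 genes at an unadjusted p under 0.05), and the smallest adjusted p was 0.0618. Cd84 had the same difference of -0.57 with an adjusted p of 0.175. The block narrowed the standard error of Cd48 from 0.22 to 0.13. Its unadjusted limma p went from 0.171 to 0.0382 (adjusted p = 0.353), so Cd48 depended on whether pools are paired. The filter at the 25th percentile left out Slamf6, and that at the median also Cd244a, Slamf7 and Slamf8. Array weights moved Slamf7 to 0.09. Of the 31 other named genes put through the alternatives, 2 adaptors and a phosphatase turned. Kit and the nearest patterns were not put through them. Sh2d1a turned to -0.028 with cyclic loess. Sh2d1b2 turned to -0.017 with cyclic loess and -0.15 with array weights, and ran from -0.064 to 0.23 with 1 pool left out. Ptpn11 turned to 0.011 with cyclic loess and 0.0078 with a second quantile normalization. It ran from -0.29 to 0.24 with 1 pool left out. The cause was not tested.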
